A study of Mus musculus with 53 samples.

Results

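Reelin is a large secreted protein that guides migrating neurons into the layers of the cortex. The 10 genes described here are its ligand, receptor and adaptor genes (Reln, Vldlr, Lrp8, Dab1, Crk and Crkl), the kinase Cdk5 with its activator Cdk5r1, and Pafah1b1 and Ndel1 of the Lis1 complex. They were taken by name, with no filter on level, from the 37991 gene IDs listed for embryonic cortex, and all 10 were found by symbol. Earlier results of these data were known when the 10 were chosen. The series holds 53 mouse libraries of 19 groups from cultured neurons and astrocytes, hippocampus and embryonic cortex, and was made to ask how neuronal activity acts on transcription through histone turnover. The values used here are those of 1 group, cortex of untreated C57bl/6 embryos at E16.5, to which the labels assign 3 libraries. Libraries of the other 18 groups, 50 in number, are not used here, and no condition is compared with another.

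In the developing cortex reelin is secreted mainly by Cajal-Retzius cells near the surface. It binds the receptors made from Vldlr and Lrp8, the Src-family kinases then phosphorylate the adaptor Dab1 inside the migrating neuron, and phosphorylated Dab1 recruits Crk and Crkl. Cdk5, switched on by p35 from Cdk5r1, acts beside this pathway on the cytoskeleton, and Lis1, the product of Pafah1b1, works with Ndel1 on the dynein motor that pulls the nucleus forward. Loss of reelin, of Dab1 or of both receptors inverts cortical layering in mice, and loss of 1 copy of the human counterpart of Pafah1b1 gives lissencephaly, a smooth cortex.

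The sequences below show where the members meet. Dab1 binds both receptors at a cytoplasmic NPxY motif, which each coding sequence holds once. The stretch around it is given from the protein-coding GENCODE M21 transcript with the longest coding sequence (Vldlr on chromosome 19, Lrp8 on chromosome 4), 5′ to 3′, with the 4 codons of the motif in capitals. They lie at coding bases 2500 to 2511 of Vldlr and 2563 to 2574 of Lrp8.
Vldlr: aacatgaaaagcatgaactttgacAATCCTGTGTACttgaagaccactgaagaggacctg
Lrp8: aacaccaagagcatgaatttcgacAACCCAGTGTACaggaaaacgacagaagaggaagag
The 60 bases matched at 45 positions (75.0%). The next stretch, coding bases 553 to 705 of Dab1 (chromosome 4), carries in capitals the 4 tyrosine motifs that the Src-family kinases phosphorylate, of which the last pair is bound by Crk and Crkl.
Dab1: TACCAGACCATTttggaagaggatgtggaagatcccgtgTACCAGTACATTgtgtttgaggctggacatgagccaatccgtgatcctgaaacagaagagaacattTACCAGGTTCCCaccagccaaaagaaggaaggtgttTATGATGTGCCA

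The coding sequences of related members shared short runs. The longest exact runs that the coding sequences of a pair share are printed in capitals, since a read within such a run could not be given to 1 gene of the pair. They had 19 bases for Vldlr and Lrp8, 23 for Crk and Crkl, 18 for Ndel1 and its paralog Nde1, and 23 for Cdk5r1 and its paralog Cdk5r2.
Vldlr and Lrp8: CACGAGTTCCAGTGCAGCA
Crk and Crkl: GGGATGATTCCTGTCCCTTACGT
Ndel1 and Nde1: GAGTTCCAGGAAGGAAGC
Cdk5r1 and Cdk5r2: GAGATCTCCTACCCGCTCAAGCC
The read length is not stated, so words of 50 bases were taken as an example. None of the words of 7 members was found in transcripts of another gene, on either strand. Reln shared 152 of 11650 words (1.30%) with Gm10475, a gene antisense to it that was listed at 0.000853 RPKM. Pafah1b1 shared 92 of 5754 (1.60%), most of them with its pseudogene Pafah1b1-ps2, and Lrp8 shared 34 of 4506 (0.755%) with 163 genes.

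The deposited unit is RPKM, reads per kilobase and per M reads of the library, as 1 authors' mean per gene over the group, so no value has an SD and no test between groups was possible. The kilobases were taken to be those of the whole gene with its introns. For genes of several exons, low values times gene span fell on 3 narrow peaks, each read as 1 read in 1 library. By gene span 662 of 729 low values (90.8%) lay within 0.5% of a peak. By exon length 35 of 382 (9.16%) did, where an even spread gives 8.74%. The peaks were searched in these same values by gene span and not by exon length, so this contrast is no test between the lengths. The peaks put the 3 libraries at 51.3, 64.8 and 71.6 M reads, 188 M in all. Levels below are given as deposited and per kilobase of exon, the union of all annotated exons, which takes all counted reads to lie in exons. Whether the counts include intron reads was not tested. Estimated reads rest on the gene span of GENCODE M21, a later annotation than the authors', and their exact Poisson intervals (95%) cover counting error only.

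All 10 genes were listed above 0 in the embryonic cortex, and their order differed between scales. As deposited, 7 of 10 reached 1 RPKM, against 18.8% of all gene IDs listed and 31.6% of 20230 protein-coding genes. Per kilobase of exon all 10 passed 1, where 54.0% of protein-coding genes did. The median of the members was 3.55 RPKM, against 0.450 RPKM over the 17140 protein-coding genes above 0, and 28.7 against 3.0 reads per kilobase of exon per M reads. The 10 genes were also longer, with a median span of 44.1 kb against 22.7 kb. The plot of members by scale shows the levels as deposited, by exon and as reads with no length.

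**Figure D1:**
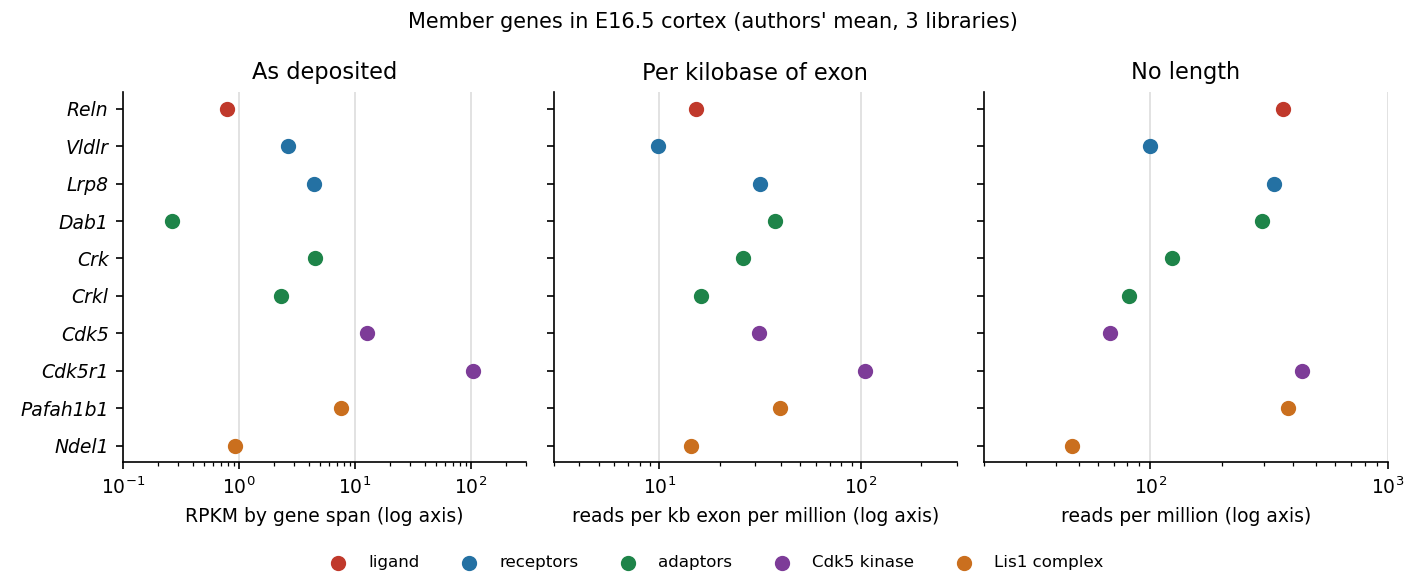
Level of each of the 10 genes in E16.5 cortex as RPKM by gene span, as reads per kilobase of exon per M reads and as reads per M reads with no length, each on a log axis; 1 point is the authors' mean of 3 libraries, with no SD. Dab1 is the lowest point in the left panel at 0.264 RPKM and the third highest in the middle panel at 37.5, while Cdk5r1 is the highest in all 3.

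Reln, the ligand gene, stood at 0.786 RPKM, the second lowest of the 10. It spans 460 kb, of which exons make up 5.16%, and an estimated 67876 reads lay behind it (interval 67366 to 68388). Only Cdk5r1 and Pafah1b1 had more reads among the members. Per kilobase of exon Reln reached 15.2, rank 2717 of 20230 protein-coding genes, against rank 7111 as deposited. Its annotated exons add up to 23.7 kb, more than the 11.7 kb of its main coding transcript, and per kilobase of that transcript the level was 30.9. The overlapping gene with most reads, the pseudogene Gm16111 on the opposite strand, had 201.

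The 2 receptor genes differed, with Lrp8 above Vldlr on every scale. Lrp8, which codes for ApoER2, stood at 4.47 RPKM, and Vldlr, which codes for the very low density lipoprotein receptor, at 2.63 RPKM. The ratio of Lrp8 to Vldlr was 1.70 as deposited, 3.21 per kilobase of exon (31.7 for Lrp8 and 9.88 for Vldlr) and 5.86 per kilobase of 1 transcript. It was 3.35 in reads with no length, from 62539 reads of Lrp8 and 18667 of Vldlr. Vldlr was the lowest member per kilobase of exon and of transcript with the GENCODE spans, while by exon with the RefSeq spans Ndel1 was lower, at 9.06. Lrp8 had 5.69 times the RPKM of its ligand gene Reln, 2.08 times per kilobase of exon and 0.921 times the reads.

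Dab1, the adaptor that both receptors share, was last of the members as deposited and held the third place per kilobase of exon, or the fourth place with the RefSeq spans. As deposited it stood at 0.264 RPKM, rank 9707 of the protein-coding genes. Dab1 spans 1125 kb, of which exons make up 0.703%. An estimated 55711 reads lay behind it (interval 55249 to 56175), and per kilobase of exon it reached 37.5, rank 846. Dab1 was 0.336 times Reln in RPKM, 0.821 times in reads and 2.46 times per kilobase of exon, and 1.82 times per kilobase of 1 transcript, so the order of adaptor and ligand turned with the length. The gene span of Dab1 differed by under 1% between GENCODE and RefSeq, at a ratio of 1.0, but with the smallest exon share of the 10, its level by exon length rests most on all reads lying in exons.

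Crk and Crkl, the adaptors that bind phosphorylated Dab1, kept their order. Crk stood at 4.48 RPKM and Crkl at 2.29 RPKM, a ratio of 1.96. It was 1.63 per kilobase of exon (26.2 for Crk and 16.1 for Crkl), 2.11 per kilobase of 1 transcript and 1.53 in reads. As deposited, Crk and Lrp8 were level, with intervals of 4.42 to 4.54 RPKM for Crk and 4.43 to 4.50 RPKM for Lrp8.

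The gene for the Cdk5 activator p35 was the most abundant of the 10 on every scale. Cdk5r1 stood at 105 RPKM, rank 73 of the protein-coding genes, and made up 74.4% of the summed RPKM of the members and 19.6% of their estimated reads. It is a gene of 1 exon, so its level was the same by span and by exon. Cdk5, the kinase itself, stood at 12.8 RPKM, or 31.2 per kilobase of exon. Cdk5r1 exceeded Cdk5 by 8.19-fold in RPKM and by 3.36-fold when divided by exon length. The RefSeq gene of Cdk5 is longer than that of GENCODE, at a GENCODE to RefSeq span ratio of 0.331. With the RefSeq span and still the GENCODE exon length, Cdk5 reached 94.4 per kilobase of exon. The ratio of Cdk5r1 to Cdk5 then fell to 1.11. Which of these spans lies behind the deposited value of Cdk5 is not stated in the labels or the file. The other activator gene, Cdk5r2, which codes for p39, stood at 7.07 RPKM, so that Cdk5r1 was 14.8-fold higher, by exon length too.

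Pafah1b1, which codes for Lis1, stood at 7.51 RPKM, with an estimated 71533 reads, and at 39.6 per kilobase of exon, rank 787. It ranked second per kilobase of exon with the GENCODE spans, and was behind Cdk5 too with the RefSeq spans. Ndel1, whose product links Lis1 to dynein, stood at 0.929 RPKM, with 8795 reads, the fewest of the 10, and at 14.4 per kilobase of exon. Pafah1b1 exceeded Ndel1 by 8.09-fold in RPKM and by 2.75-fold when divided by exon length. The GENCODE span of Ndel1 is 1.59 times the RefSeq span, and with the RefSeq spans the ratio was 4.35. Ndel1 and its paralog Nde1 were close as deposited, at 0.929 RPKM for Ndel1 and 0.975 RPKM for Nde1, a ratio of 0.953. The ratio was 1.60 per kilobase of exon and 1.0 with the RefSeq spans, so that no order of the pair held across lengths. Nde1 also shared 28 of 2238 words of 50 bases (1.25%) with the gene Marf1.

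Lis1 is also the regulatory subunit of an enzyme that cleaves platelet-activating factor, whose catalytic subunits come from Pafah1b2 and Pafah1b3. Both genes stood above Pafah1b1 as deposited, at 13.9 RPKM for Pafah1b2 and 37.4 RPKM for Pafah1b3. The ratio of Pafah1b1 to Pafah1b2 was 0.539 in RPKM and 0.471 per kilobase of exon. Pafah1b1 to Pafah1b3 was 0.201 in RPKM, 0.760 per kilobase of exon and 0.539 per kilobase of 1 transcript. In reads with no length Pafah1b1 was 3.47-fold above Pafah1b3, a gene of 2.94 kb.

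**Figure D2:**
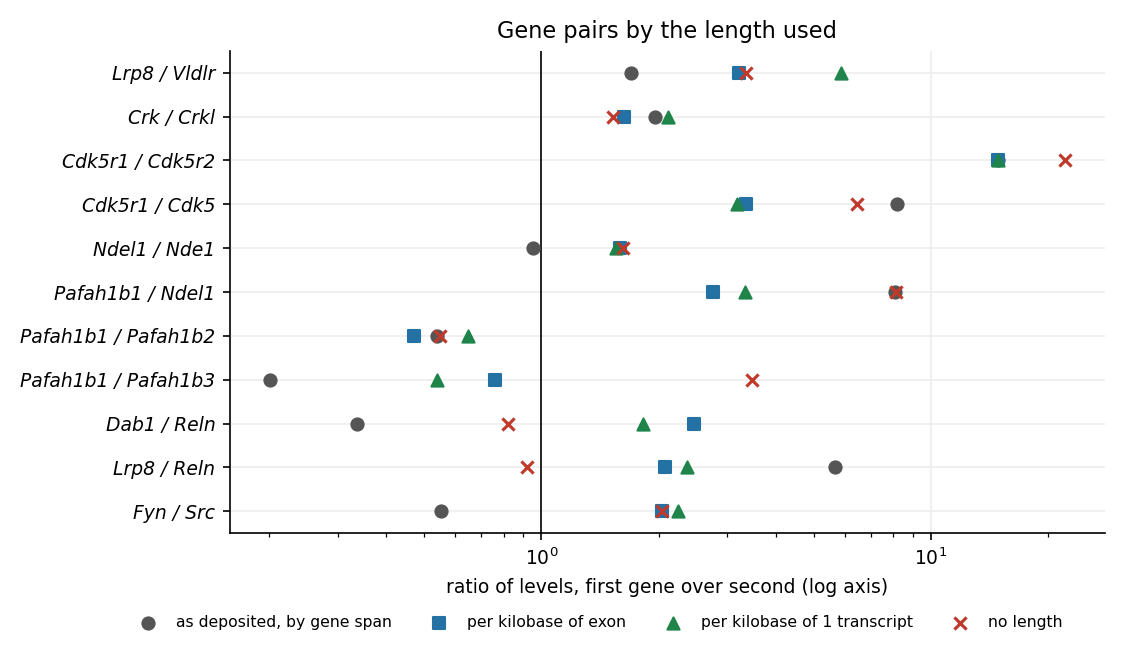
Ratio of the first gene over the second for the 11 pairs on a log axis, as deposited (circle), per kilobase of exon (square), per kilobase of 1 coding transcript (triangle) and in reads with no length (cross); the vertical line marks equal levels. Dab1 over Reln lies at 0.336 as deposited and 2.46 by exon, on opposite sides of the line, while Lrp8 over Vldlr, Crk over Crkl and Cdk5r1 over Cdk5r2 lie to its right on all 4 scales.

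Among all protein-coding genes the members moved into a narrower band when exon length was used. As deposited the highest and the lowest, Cdk5r1 and Dab1, were at 105 and 0.264 RPKM, and 52.0% of protein-coding genes ranked below Dab1. Per kilobase of exon they ran from 105 for Cdk5r1 to 9.88 for Vldlr, and 78.9% of protein-coding genes ranked below Vldlr. The order by exon with the GENCODE spans was Cdk5r1, Pafah1b1, Dab1, Lrp8, Cdk5, Crk, Crkl, Reln, Ndel1 and Vldlr. With the RefSeq spans Cdk5 was second, at 94.4, and Ndel1 was last, at 9.06. Of the neighbours in it, Lrp8 (31.4 to 31.9) and Cdk5 (30.7 to 31.8) overlapped in their counting intervals. The spread between libraries was not measured for any of these neighbours, so their order is that of the means alone.

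**Figure D3:**
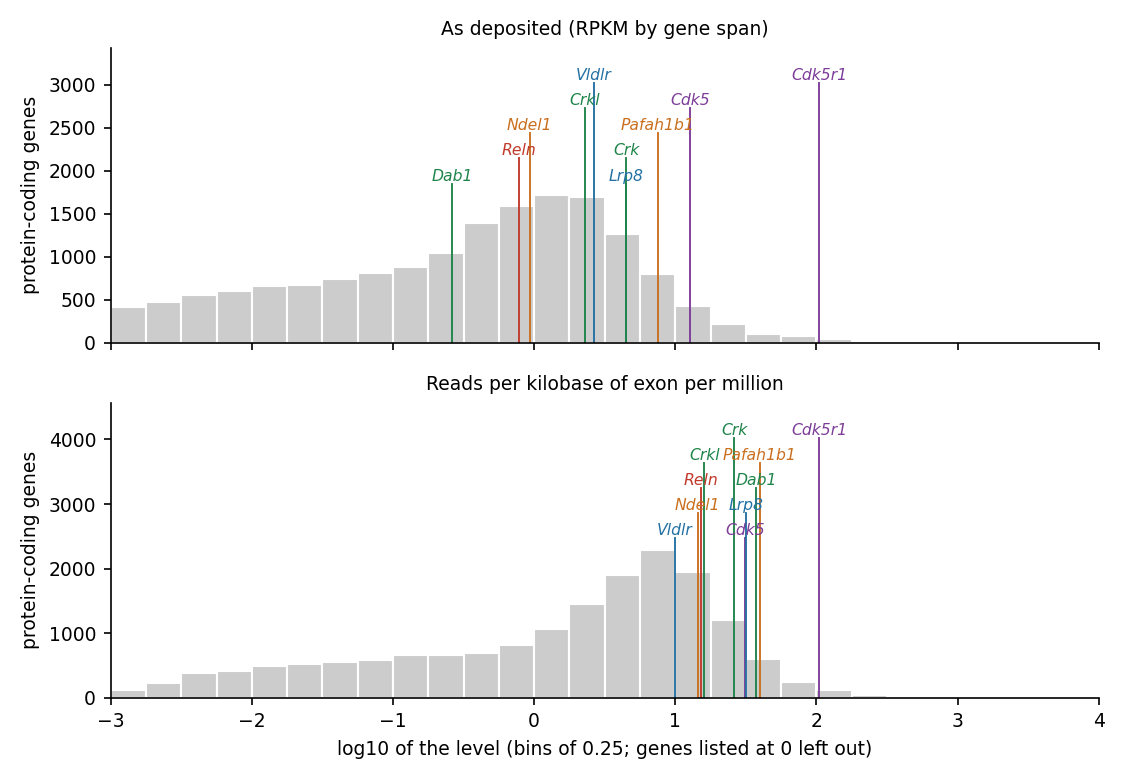
Protein-coding genes listed above 0, in bins of 0.25 on the log10 scale, as deposited (upper panel) and per kilobase of exon (lower panel), with a line at the level of each of the 10 genes in the colour of its role. The members stretch from Dab1 at 0.264 to Cdk5r1 at 105 RPKM in the upper panel, and lie between 9.88 and 105, at or right of the fullest bin, in the lower one.

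Most genes listed for the wider pathway also reached 1 RPKM. The 54 further genes were picked for their role, with earlier results of these data known. Of these, 39 reached 1 RPKM, against 31.6% of protein-coding genes, and 52 reached 1 per kilobase of exon, against 54.0%. The medians of the 54 were 2.1 RPKM and 22.9. Counts by role below stand beside the same shares. The 2 that stayed below 1 per kilobase of exon were the protease gene Adamts5 at 0.278 and Cradd, which codes for a caspase adaptor, at 0.809. The plot of other pathway genes shows them by role.

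Of the Dab1 kinases, Src stood at 1.89 RPKM, Fyn at 1.05 RPKM and Yes1 at 0.310 RPKM. Fyn, the main Dab1 kinase in mouse brain, was 0.554 times Src as deposited but 2.04 times Src per kilobase of exon, at 47.2 for Fyn and 23.1 for Src, and 2.04 times in reads. Of 9 genes for proteins acting downstream of Dab1, 6 reached 1 RPKM, against 31.6% of protein-coding genes. The 9 ran from Pik3r2, a regulatory subunit gene of PI3-kinase, at 14.9 RPKM to the adaptor gene Nck1 at 0.188 RPKM. All 3 genes of the ubiquitin ligase that degrades phosphorylated Dab1 reached 1 RPKM, with the RING subunit gene Rnf7 highest at 5.11 RPKM and the cullin gene Cul5 lowest at 1.17 RPKM.

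Of 8 genes of other ligands, integrins and reelin-cleaving proteases, 3 reached 1 RPKM, a share near the 31.6% of protein-coding genes, and 7 reached 1 per kilobase of exon. Apoe, whose product binds the same receptors, was the highest at 7.11 RPKM, and the protease gene Adamts2 the lowest at 0.0586 RPKM. Of the second Cdk5 activator and 4 Cdk5 substrates, 4 of 5 reached 1 RPKM, from Cdkn1b, the gene for the cell-cycle inhibitor p27, at 29.4 RPKM to the focal adhesion kinase gene Ptk2 at 0.648 RPKM. Per kilobase of exon Mapt, the gene for tau, led them at 178. Of 9 partners of Lis1, 7 reached 1 RPKM, from Pafah1b3 down to the dynein intermediate chain gene Dync1i1 at 0.540 RPKM.

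The 15 other genes tied to lissencephaly in humans had a median of 4.05 RPKM, and 12 reached 1 RPKM, against 31.6% of protein-coding genes. The alpha-tubulin gene Tuba1a was the highest at 1346 RPKM, a value that is uncertain where reads could not be told from those of near-identical tubulin genes, and Cradd the lowest at 0.0258 RPKM. Both doublecortin-like kinase genes passed 1 RPKM, Dclk1 at 1.77 and Dclk2 at 1.49 RPKM.

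**Figure D4:**
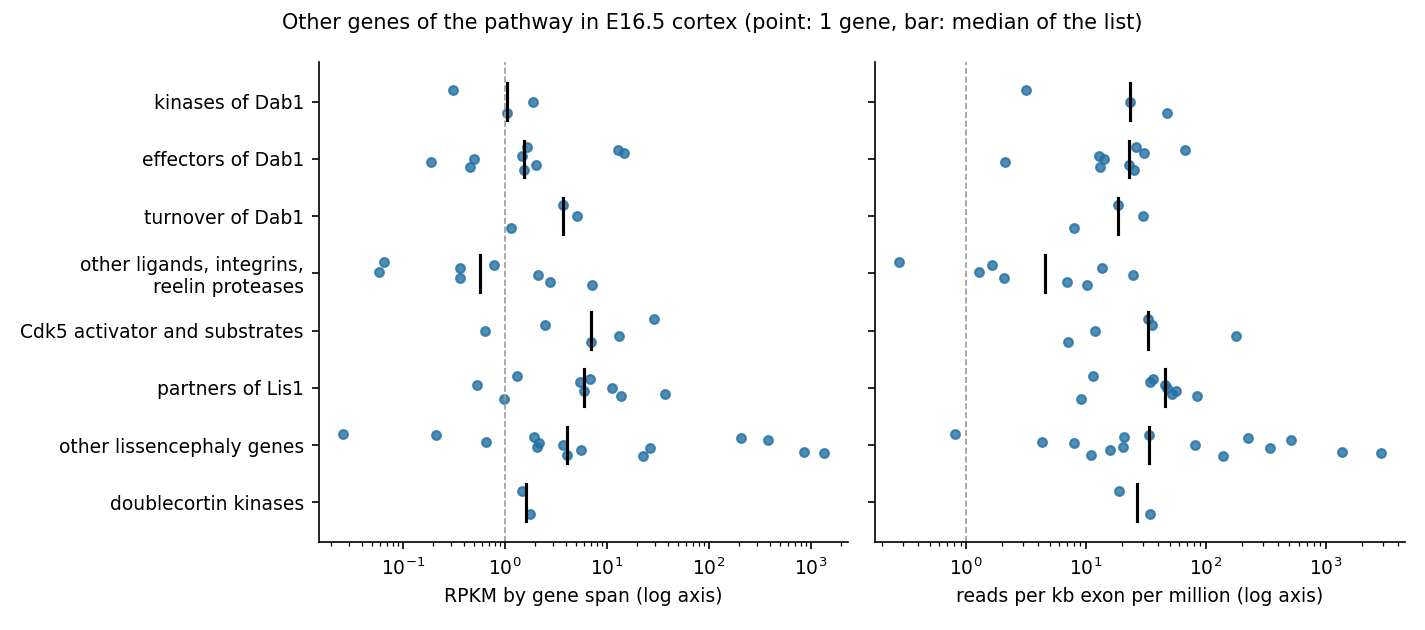
Levels of 54 further pathway genes by role, as RPKM by gene span (left) and as reads per kilobase of exon per M reads (right), on log axes; each point is the authors' mean of 1 gene, black bars are list medians and the dashed line is a level of 1. Points left of the line number 15 in the left panel and 2 in the right.

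The labelled tissue was checked on marker genes, and all 10 genes chosen as markers of embryonic cortex passed 1 RPKM, from Pax6, a radial glia factor, at 1.57 RPKM to the neuronal factor Neurod6 at 194 RPKM. Of 8 Cajal-Retzius genes, none reached 1 RPKM but 6 reached 1 per kilobase of exon, and Reln, itself on that list, was the highest on both scales. The lowest was the transcription factor gene Ebf3 at 0.0713 RPKM, or by exon another, Lhx1, at 0.668. The summed level of the 8 was 3.15 RPKM, with 0.786 of it from Reln, or 35.8 per kilobase of exon, with 15.2 of it from Reln. Of 8 genes of GABAergic neurons, which can also make reelin, 6 reached 1 RPKM, from the neuropeptide gene Sst at 20.1 to Gad2 at 0.530 RPKM, with a sum of 53.0 RPKM. By exon all 8 reached 1, with a sum of 129.7. Of 5 glial genes 1 reached 1 RPKM and 3 reached 1 by exon, with Olig1 highest at 6.50 RPKM and Gfap lowest at 0.109 RPKM. Of 8 genes of cells outside the neural lineage 2 reached 1 RPKM and 5 reached 1 by exon, with the globin gene Hbb-bs at 52.6 RPKM and the fibroblast gene Dcn at 0.0223 RPKM. No listed marker was at 0. Over all protein-coding genes, 31.6% reached 1 RPKM and 54.0% reached 1 by exon. The counts of glial genes and of genes outside the neural lineage lay near these shares, so they do not show whether such cells were present. The part of each cell type in the level of Reln was not tested, and in bulk tissue fewer cells of a type and less RNA per cell cannot be told apart.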

How the data were processed

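Per the labels' protocols, tissue was homogenised in Trizol, the RNA passed over RNeasy columns, and TruSeq libraries were sequenced. The authors deposited 1 column of RPKM for embryonic cortex, a mean with no value per library. Per the submitters' processing notes, the tools were DESeq 1.16.0, HTSeq 0.6.0, Cuffdiff 2.0.2, TopHat2 2.0.9 and Bowtie2 2.1.0, with the build mm9 (NCBIM37). Which of them made the RPKM, the strand used in counting and the origin of the 3 libraries (separate animals or not) are not given in the sources used here.

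GENCODE M21 gave symbols and lengths for 32938 of the IDs, an annotation on a later build, so no coordinates are given. Low RPKM values times gene span (end minus start) fell on 3 narrow peaks, read as 1 read in each of 3 libraries; the peak search was tested on simulated libraries of known depth. Reads are RPKM times span times the summed depth, taking equal levels in the libraries. A count of 0 would allow up to 3 reads, or 0.0160 reads per M reads. Intervals of reads are exact Poisson intervals, and PCR reads are not independent molecules. Medians were also taken on the log2(RPKM + 0.1) scale. The text names all 10 members, the genes of 11 pairs, and the highest and lowest gene of every other list. Genes named beyond the rule, chosen after their values were seen, are Gm10475, Gm16111, Pafah1b1-ps2, Marf1, Prpf8, Serpinf2 and those highest or lowest by exon length. Ywhae, of the list of other lissencephaly genes, is named beyond the rule too. The members and lists were chosen with earlier results of these data known. Sequences come from GENCODE M21 transcripts. Python 3.11.15, pandas 2.3.3, NumPy 2.4.6, SciPy 1.17.1 and Matplotlib 3.10.9 were used. Alternatives were other lengths, pseudocounts, limits and summaries.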

Additional observations from a re-analysis of the deposited data

How the results depend on the processing

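No paired analysis was possible because the only column is a mean over the libraries, and for the same reason no replicate could be left out. The pair ratios moved most with the length. Some ratios turned round. Ndel1 to Nde1 was 1.60 by exon, 1.62 in reads and 1.56 by 1 transcript, but level at 1.0 by exon with RefSeq spans. Fyn to Src was 2.04 by exon, 2.04 in reads, 2.27 by exon with RefSeq spans and 2.25 by 1 transcript. Dab1 to Reln was 2.46 by exon, 2.46 with RefSeq spans and 1.82 by transcript. In reads, Pafah1b1 to Pafah1b3 was 3.47 and Lrp8 to Reln was 0.921. By exon and by 1 transcript the reads are those of the deposited value and only the length differs. With RefSeq spans the estimated reads differ too, while the exon length stays that of GENCODE.

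Ratios that kept their direction but left the counting interval of the ratio as deposited are given next. The settings rescale the same deposited values, so that interval serves only as a limit of size and does not test the change. By exon they were 3.21 for Lrp8 to Vldlr, 1.63 for Crk to Crkl, 3.36 for Cdk5r1 to Cdk5, 2.75 for Pafah1b1 to Ndel1, 0.471 for Pafah1b1 to Pafah1b2, 0.760 for Pafah1b1 to Pafah1b3 and 2.08 for Lrp8 to Reln. In reads they were 3.35, 1.53, 6.44 for the first 3, 22.1 for Cdk5r1 to Cdk5r2, 0.549 for Pafah1b1 to Pafah1b2 and 0.821 for Dab1 to Reln. By exon with RefSeq spans, chosen after seeing the data, they were 3.21 for Lrp8 to Vldlr, 1.72 for Crk to Crkl, 15.4 for Cdk5r1 to Cdk5r2, 1.11 for Cdk5r1 to Cdk5, 4.35 for Pafah1b1 to Ndel1, 0.493 for Pafah1b1 to Pafah1b2, 0.755 for Pafah1b1 to Pafah1b3 and 2.08 for Lrp8 to Reln. By 1 transcript, chosen likewise, they were 5.86, 2.11, 3.19 for Cdk5r1 to Cdk5, 3.34 for Pafah1b1 to Ndel1, 0.650 for Pafah1b1 to Pafah1b2, 0.539 for Pafah1b1 to Pafah1b3 and 2.37 for Lrp8 to Reln. With 0.1 RPKM added, Crk to Crkl was 1.92, Pafah1b1 to Ndel1 7.40, Dab1 to Reln 0.411, Lrp8 to Reln 5.16 and Fyn to Src 0.577.

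The median of the members on the log2(RPKM + 0.1) scale, 1.82, was 2.16 with a pseudocount of 1, 1.78 with 0.01, 2.19 over members of 1 RPKM or more, 1.88 as a mean, 1.45 without Cdk5r1 and 4.84 by exon.
The number of members at the limit, 7, was 9 with a limit of 0.5 RPKM, 7 with 2 RPKM and 10 by exon. That of the 54 other genes, 39, was 45, 29 and 52. Of all protein-coding genes 31.6% reached 1 RPKM and 54.0% reached 1 by exon. Their shares at 0.5 and 2 RPKM were not taken, so the counts at those limits have nothing to stand beside. By exon length, 9 of 10 member levels left their counting interval as deposited, all but that of Cdk5r1, a gene of 1 exon. This follows from the exon share of each gene span and is no test against counting error.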

Other observations

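Chromosome 11 held 4 of the 10, Pafah1b1, Crk, Cdk5r1 and Ndel1. In the GENCODE M21 order, 23 protein-coding genes lie between Pafah1b1 and Crk, and Ywhae, whose product 14-3-3 epsilon binds phosphorylated Ndel1, is the next protein-coding gene after Crk. In humans the counterparts of Pafah1b1 and Ywhae are lost together in Miller-Dieker lissencephaly. Ywhae stood at 26.7 RPKM, above Pafah1b1 at 7.51 and Crk at 4.48 RPKM. The 23 genes between had a median of 0.772 RPKM, and 9 reached 1 RPKM, against 31.6% of all protein-coding genes. Per kilobase of exon their median was 3.12, and 17 reached 1, against 54.0% of all protein-coding genes. The highest of the 23 as deposited was the splicing factor gene Prpf8 at 14.4 RPKM. The lowest was the serpin gene Serpinf2 at 0.0134 RPKM, and both were named after their values were seen.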
